A study of Mus musculus with 18 samples.

Results

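Transcripts of brown fat were set against transcripts of skeletal muscle by comparing all 6 arrays labelled FAK1 with all 6 arrays labelled FAK5, which make up 12 of the 18 arrays of the series. Arrays entered by their label alone, but the contrast and its tissue names were chosen with earlier results of these data known. The marker differences below therefore lend the tissue names no separate support. Total RNA had been hybridised to Illumina mouse bead arrays. Per the labels, the cells carried the surface protein CD110 and were taken with magnetic beads from colon tumours of mouse 1 (FAK1) and mouse 5 (FAK5). Both mice were C57Bl/6 and 17 weeks old and carried Fapbl-Cre, a Cre recombinase under the Fapbl promoter, with Apc2lox14/+, a floxed copy of the tumour suppressor Apc, among their alleles. Cells of both labels were kept with Dox (doxycycline). The 4 groups were FAK1 with 1 μM U73122, FAK1 without it, FAK5 with 1 μM U73122 and FAK5 without it, each kept for 24 h and each with 3 arrays. U73122 is a small molecule used as an inhibitor of phospholipase C. Treatment entered the fit as a block, so that the contrast described here is FAK1 minus FAK5. The labels give 1 mouse for each label, but the levels of Xist and Eif2s3y below differ between arrays of a label, and what the arrays of a label share is not known. The p-values therefore rest on the spread between arrays, part of which may be technical.

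Brown fat cells burn fatty acids to make heat. Uncoupling protein 1, encoded by Ucp1, lets protons pass back across the inner mitochondrial membrane without making ATP, and noradrenaline drives the process through cyclic AMP and the release of fatty acids from lipid droplets. Skeletal muscle fibres are built of sarcomeres, in which myosin thick filaments slide along actin thin filaments when calcium leaves the sarcoplasmic reticulum, and they renew ATP from phosphocreatine, glycogen and glucose. Both tissues are rich in mitochondria and arise in part from a shared embryonic precursor, but they use different members of many enzyme and structural families.

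Values are log2 normalized signals, and a difference of 1 is a 2-fold ratio. A difference was called when the limma p-value, adjusted by Benjamini-Hochberg over the 10383 genes tested, was under 0.05. Of these genes 3599 (34.7%) were called higher and 3068 (29.5%) lower in FAK1, together 64.2%. At least 4-fold, 383 (3.69%) were called higher and 527 (5.08%) lower, and at least 16-fold, 60 (0.578%) and 147 (1.42%). The 6 values of FAK1 and the 6 of FAK5 did not overlap for 4300 genes (41.4%). The median difference of all genes tested was 0.06. A gene that passed the detection filter only through the label where it is high had to differ, so the counts over lists below describe the members tested and support nothing by themselves. Every such count is to be read beside 34.7% higher and 29.5% lower over all genes. Of the 10383 genes, 8785 were detected on all 6 FAK1 arrays and 8513 on all 6 FAK5 arrays. Correlations between arrays over genes lay between 0.956 and 0.989 within FAK1, between 0.956 and 0.983 within FAK5, and between 0.754 and 0.852 across the labels. The highest normalized value was 14.77 on every array, because the normalization gives all arrays the same distribution. Before it, the highest signal ran from 24940 (FAK5 untreated array 3) to 35070 (FAK5 treated array 2). The brightest muscle genes on FAK5 arrays lay just below 14.77.

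Several arrays stood apart from their labels. Xist, the RNA made from the inactive X chromosome of females, was 10.57, 10.43 and 10.37 on FAK1 treated arrays 1, 2 and 3 and 10.55 on untreated array 2, against 4.63 and 4.99 on untreated arrays 1 and 3. FAK5 showed the same arrangement, with Xist at 9.81, 10.30 and 10.31 on the treated arrays, 9.80 on untreated array 2, and 4.73 and 4.42 on untreated arrays 1 and 3. Eif2s3y, a gene of the Y chromosome, was 10.21 and 10.08 on untreated arrays 1 and 3 of FAK1 and 9.73 and 9.99 on those of FAK5, against at most 4.55 on the other FAK1 arrays and at most 4.64 on the other FAK5 arrays. Each label thus held arrays with and without Eif2s3y, although each stands for 1 mouse in the labels. Few genes of the labelled tissue were detected: of 22 colon epithelium genes on the array, between 4 and 8 were detected on a FAK1 array and between 5 and 9 on a FAK5 array, and Epcam, the surface protein of epithelial cells, was detected on 0 of 12. Of the 7 that were tested, 3 were higher and 2 lower, against 34.7% and 29.5% over all genes. Only 1 was lower without any one of 5 arrays (FAK1 treated arrays 1 and 3, FAK1 untreated array 2, FAK5 treated array 2 and FAK5 untreated array 2). Those with the largest differences were Tspan8, a tetraspanin (-3.82), Lgals4, a galectin (2.03), and Car4, a carbonic anhydrase (1.59), while the mucin gene Muc2 did not pass the test (0.24, adjusted p = 0.135).

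The markers of brown fat were detected mostly in FAK1 and those of skeletal muscle on every FAK5 array, with exceptions. Of 5 brown fat markers on the array, 3 (Ucp1, Cidea and Kcnk3) were detected on all 6 FAK1 arrays and 0 on all 6 FAK5 arrays. Elovl3, a fatty acid elongase that cold induces in brown fat, was detected on 0 of 12 arrays, with levels between 4.37 and 4.74 on FAK1 arrays and between 4.46 and 4.61 on FAK5 arrays. Of 8 skeletal muscle markers, 8 were detected on all 6 FAK5 arrays, and 3 of them (Acta1, Mylpf and Pvalb) also on all 6 FAK1 arrays. Of 6 heart markers, 5 (Nppa, Nppb, Myl7, Tnni3 and Ryr2) were detected on no array of either label. Of 6 markers of fat in general, 5 were detected on all 6 FAK1 arrays and 4 (Adipoq, Fabp4, Cidec and Lep) on all 6 FAK5 arrays.

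Promoters of a few genes of the contrast are shown. Ucp1, Actc1 and Mybpc2 are markers, whereas Klhl41, Myoz2 and Myh4 are list genes at least 16-fold lower, picked because their windows hold matches. The matches of these picked genes therefore follow from the choice and do not stand for muscle genes in general. Each line holds the 130 bases before the start of transcription, 5′ to 3′ on the gene's strand, from RefSeq (GRCm38.p6), and capitals mark matches to CAGCTG (an E-box, the kind of site bound by MyoD family factors), the MEF2 core (CTA and TAG with 4 bases between them, as in MEF2 sites), the CArG box (bound by serum response factor) or TATAAA, each searched on both strands. The lines cover Ucp1 (chr8:83290218-83290347, + strand), Actc1 (chr2:114052876-114053005, - strand), Mybpc2 (chr7:44524670-44524799, - strand), Klhl41 (chr2:69669990-69670119, + strand), Myoz2 (chr3:123034988-123035117, - strand) and Myh4 (chr11:67237682-67237811, + strand).
Ucp1: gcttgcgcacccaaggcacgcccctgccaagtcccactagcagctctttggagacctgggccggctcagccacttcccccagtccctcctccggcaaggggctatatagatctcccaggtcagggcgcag
Actc1: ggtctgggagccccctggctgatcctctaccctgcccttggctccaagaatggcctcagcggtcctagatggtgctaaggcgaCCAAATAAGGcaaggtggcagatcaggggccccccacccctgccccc
Mybpc2: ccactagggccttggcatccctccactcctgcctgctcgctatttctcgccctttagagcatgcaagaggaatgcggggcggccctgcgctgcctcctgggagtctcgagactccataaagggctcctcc
Klhl41: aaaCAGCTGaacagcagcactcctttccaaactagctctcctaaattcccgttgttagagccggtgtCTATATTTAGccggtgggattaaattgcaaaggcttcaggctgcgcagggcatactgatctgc
Myoz2: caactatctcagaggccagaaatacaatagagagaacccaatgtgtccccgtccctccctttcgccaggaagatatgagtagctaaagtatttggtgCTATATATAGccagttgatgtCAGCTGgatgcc
Myh4: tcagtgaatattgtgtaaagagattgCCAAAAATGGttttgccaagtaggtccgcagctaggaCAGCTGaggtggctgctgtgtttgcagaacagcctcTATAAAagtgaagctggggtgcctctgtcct

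In the Actc1 window the CArG box lies at positions -47 to -38 from the start. The Klhl41 window holds CAGCTG at -127 to -122 and the MEF2 core at -63 to -54. The Myoz2 window holds them in the other order, with the MEF2 core at -33 to -24 and CAGCTG at -12 to -7. The Myh4 window holds a CArG box at -104 to -95, CAGCTG at -67 to -62 and TATAAA at -31 to -26. The Mybpc2 and Ucp1 windows hold no match. Over windows of 250 bases before to 50 bases after the start, CAGCTG was found in 46 of the 107 genes with a window that were lower at least 16-fold (43%), in 7 of the 42 that were higher at least 16-fold (16.7%) and in 18.3% of the 8396 tested genes with a window. The MEF2 core was found in 13.1%, 4.76% and 3.82% of these sets, and the CArG box in 6.54%, 2.38% and 1.76%. TATAAA was in 18.7%, 11.9% and 9.56%, and the cyclic AMP element TGACGTCA in 3.74%, 2.38% and 3.57%. A DR1 element, the kind of site bound by PPARγ, searched as 2 copies of AGGNCA with 1 base between them, was in 0%, 0% and 0.25%. These shares are descriptions of letters in windows, in sets that the measured differences chose.

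Ucp1 was 13.62, 13.40 and 13.85 on the FAK1 treated arrays and 13.62, 12.35 and 13.15 on the untreated ones, against 4.22, 5.05 and 4.34 on the FAK5 treated arrays and 4.37, 4.37 and 4.27 on the untreated ones. No FAK5 value came near the FAK1 values, and only 1 of the 6 FAK5 arrays detected the gene, so the difference of 8.90 ± 0.20 (SE, adjusted p = 8.87e-13) is largely against background. Cidea, a lipid droplet protein of brown fat, was 12.97, 13.24, 13.06, 13.56, 12.99 and 13.50 on the FAK1 arrays, treated first, against 4.69, 5.27, 4.55, 4.602, 4.69 and 4.73 on the FAK5 arrays. Its difference was 8.47 ± 0.15 (adjusted p = 2e-13), and 1 of 6 FAK5 arrays detected it.

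Actc1, the cardiac alpha-actin that skeletal muscle also makes, ran the other way. It was 8.43, 9.33 and 8.55 on the FAK1 treated arrays and 4.51, 5.01 and 4.71 on the untreated ones, against 14.52, 14.46 and 13.92 on the FAK5 treated arrays and 14.60, 10.84 and 13.19 on the untreated ones. The labels did not overlap, but the FAK1 treated arrays lay above the FAK1 untreated ones. The difference was -6.83 ± 0.58 (adjusted p = 1.72e-07). Mybpc2, the fast isoform of myosin-binding protein C, was 9.92, 9.92, 7.73, 4.91, 5.16 and 4.76 on the FAK1 arrays, treated first, against 13.76, 13.63, 13.07, 13.80, 12.31 and 12.92 on the FAK5 arrays, with a difference of -6.18 ± 0.62 (adjusted p = 1.04e-06). Both muscle markers spread far more over the FAK1 arrays than the fat markers did.

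**Figure D1:**
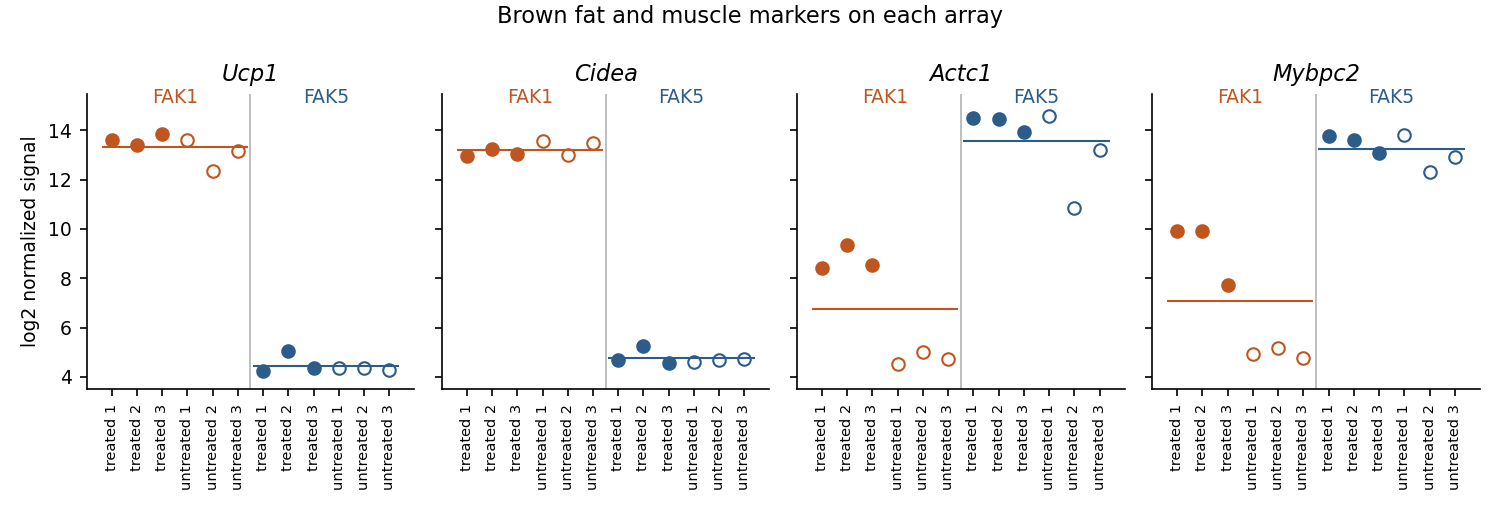
Log2 normalized signal of Ucp1, Cidea, Actc1 and Mybpc2 on each of 12 arrays, FAK1 left and FAK5 right, with filled points for U73122 and open points for untreated arrays; lines are the means of 6 arrays. Ucp1 averaged 13.33 on FAK1 and 4.44 on FAK5 arrays, while Actc1 and Mybpc2 averaged 6.75 and 7.07 on FAK1 arrays, with the FAK1 untreated arrays near background, and 13.59 and 13.25 on FAK5 arrays.

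The 12 largest differences above 0 were led by Ucp1 and Cidea and also held Tmem45b, a membrane protein (7.60), Kng1 (7.31) and Kng2 (6.59), the kininogens, Apoc1, an apolipoprotein (7.18), Pck1, which makes glycerol for triglyceride in fat (7.09), and Slc27a2, a fatty acid transporter and acyl-CoA synthetase. The rest were Prkar2b, a regulatory subunit of protein kinase A (6.54), Impdh1 of guanine nucleotide synthesis (6.49), Angptl4, an inhibitor of lipoprotein lipase (6.30), and Lncbate10, a long noncoding RNA (6.23). Slc27a2 was detected on 0 of 6 FAK5 arrays and was at least 86.9-fold higher in FAK1. Kng1 and Kng2 are near-identical copies, so their probes may not tell them apart. On FAK1 untreated array 2, Kng1 was 10.11 and Kng2 8.99, below the other FAK1 arrays (12.34 to 12.63 and 11.07 to 11.72).

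The 12 largest differences below 0 were led by Actc1 and Mybpc2. They also held Myoz1, a Z disc protein that binds calcineurin (-6.03), Actn3, the alpha-actinin of fast fibres (-5.76), Mybpc1, the slow myosin-binding protein C (-5.74), Ryr1, the calcium release channel (-5.88), and Ky, a protein of muscle growth and neuromuscular maturation (-6.17). The others were Rbfox1, a splicing regulator (-5.82), Eef1a2, the elongation factor of muscle and neurons (-5.74), Ckmt2, the mitochondrial creatine kinase of striated muscle (-5.73), Rtn2, a reticulon (-5.66), and Pygm, the muscle glycogen phosphorylase (-5.66). All 24 genes had 6 FAK1 values that did not overlap the 6 FAK5 values, which was part of how they were picked.

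Genes of thermogenesis were called higher in FAK1. Of 18 tested members of the brown fat list, 18 were higher and 0 lower, 11 of them at least 4-fold, with a median difference of 2.95 against 0.06 over all genes. On all 6 arrays of their label, 16 of the 18 were detected in FAK1 and 8 in FAK5. Of all 10383 genes tested, 8785 and 8513 were. Over the treated arrays alone 15 members of the list were higher. Beside Ucp1 and Cidea, the potassium channel gene Kcnk3 was 10.62 to 10.92 (mean 10.77 ± 0.12, SD) on FAK1 arrays against 4.68 to 5.19 (mean 4.91 ± 0.19) on FAK5 arrays (difference 5.87 ± 0.11, adjusted p = 2e-13). Letmd1, a mitochondrial protein needed for thermogenesis in mice, averaged 11.74 ± 0.16 in FAK1 and 7.00 ± 0.17 in FAK5 (SD, n = 6 each). The transcriptional regulators of the list differed less. Ebf2 was higher by 2.37, Prdm16 by 1.69, Zic1 by 1.00 and the coactivator Ppargc1a by 0.90. Lhx8, detected on 0 of 6 FAK5 arrays, was at least 1.34-fold higher. Values of Zic1 and of Lhx8 overlapped between the labels. Over treated arrays alone limma called neither Zic1 (0.73, adjusted p = 0.23) nor Lhx8 (adjusted p = 0.153). Without untreated arrays 1 and 3 of both labels the Zic1 call was also lost (0.90, adjusted p = 0.0803). Prdm16 was detected on 1 of 6 FAK5 arrays, whereas Ppargc1a averaged 8.99 ± 0.16 in FAK5 against 9.89 ± 0.41 in FAK1; all 6 FAK5 arrays detected it. Dio2, which activates thyroid hormone in brown fat, was close to the threshold (0.90, adjusted p = 0.0469), and leaving out any one of 10 of the 12 arrays ended the call, with differences between 0.60 and 0.97.

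Genes that mark all fat cells followed. Of 17 adipocyte and adipokine genes, 15 were higher and 1 lower, with a median difference of 3.15. Adipoq, which encodes the hormone adiponectin, was 13.35 to 13.54 on FAK1 arrays and 8.13 to 9.43 on FAK5 arrays (difference 4.52 ± 0.18, adjusted p = 1.66e-10). Pparg, the master regulator of fat cell formation, was higher by 5.14 ± 0.10, Adig, a small adipocyte protein, by 5.67 and Fabp4, a fatty acid binding protein, by 3.46. Lep, the gene of leptin, was higher by 3.15. The single lower member was Agt, angiotensinogen (-1.14, adjusted p = 0.00219). Slc7a10, an amino acid transporter, did not pass (0.57, adjusted p = 0.0977), but passed without FAK1 untreated array 3 (0.74) or without FAK5 untreated array 2 (0.70). Lpl, lipoprotein lipase, which both tissues make, was bright in both at 14.28 ± 0.09 in FAK1 and 13.48 ± 0.19 in FAK5 (difference 0.81). Fewer cells of a type and less RNA per cell cannot be told apart in bulk RNA, here or in the results that follow.

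Of 16 lipid droplet and lipolysis genes, 15 were higher and 1 lower (median 2.58). Cidec, which fuses droplets, was higher by 5.39, the droplet coat protein Plin1 by 4.61 and the glycerol channel Aqp7 by 4.08. The lipases Lipe and Pnpla2 were higher by 3.66 and 2.58. Plin1 and Lipe were each detected on 1 of 6 FAK5 arrays, so their differences are largely against background. The lower member, Fitm1, is a droplet-forming protein known from muscle. It was 4.64 to 6.63 on FAK1 arrays and 9.43 to 10.17 on FAK5 arrays (difference -4.25 ± 0.24, adjusted p = 2.79e-09). Among 18 genes of fatty acid and triglyceride synthesis, 17 were higher and 0 lower (median 2.44), led by Thrsp, a regulator of fat synthesis (5.99), Tkt, transketolase (5.81), Agpat2, an acyltransferase (4.58), and Elovl6, an elongase (4.34). Dgat2, which makes triglyceride, averaged 14.25 ± 0.13 in FAK1 and 10.35 ± 0.48 in FAK5. Fasn, fatty acid synthase, was detected on 0 FAK5 arrays and 4 FAK1 arrays and was at least 1.36-fold higher. On FAK1 untreated arrays 2 and 3 it was 4.40 and 4.45, within the FAK5 range. Over untreated arrays alone its difference was 0.28 (adjusted p = 0.375). Me1, malic enzyme, did not pass (-0.40, adjusted p = 0.117), though it passed without FAK1 treated array 1 (-0.54).

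Both tissues oxidise fatty acids, and here FAK1 was again higher, by less. Of 22 genes of fatty acid oxidation, 20 were higher and 0 lower (median 1.66). The largest were Ehhadh, the peroxisomal bifunctional enzyme (3.12), and the mitochondrial enzymes Acaa2 (2.96), Acads (2.83) and Hadh (2.46). Cpt1b, the carnitine palmitoyltransferase of muscle and brown fat, differed little, with 11.95 ± 0.10 in FAK1 and 11.66 ± 0.12 in FAK5 (0.29, adjusted p = 0.00507). Fabp3, known as the heart and muscle fatty acid binding protein, was higher in FAK1 by 0.93, and Crat, carnitine acetyltransferase, did not pass (0.16, adjusted p = 0.163). Of 16 genes of branched-chain amino acid breakdown, 14 were higher and 0 lower (median 1.27). Auh was higher by 2.78, Pccb and Pcca, the subunits of propionyl-CoA carboxylase, by 2.36 and 2.21, and Bcat2, the transaminase that opens the pathway, by 1.70. Acadsb (0.12) and Ivd (0.11) did not pass.

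Of 16 genes of the tricarboxylic acid cycle and pyruvate entry, 12 were higher and 3 lower (median 0.72). Over all genes the shares were 34.7% and 29.5%, which also stand beside the respiratory chain and ATP synthase counts below. Idh3b, a regulatory subunit of isocitrate dehydrogenase, stood out at 13.18 ± 0.20 in FAK1 against 8.80 ± 0.09 in FAK5 (difference 4.39 ± 0.10, adjusted p = 7.98e-13). Pdk4, the kinase that shuts pyruvate dehydrogenase, was higher by 1.74, Cs, citrate synthase, by 0.66, and Dlat, a subunit of pyruvate dehydrogenase, was lower (-0.95). Of 35 complex I genes, 18 were higher, 0 lower and 17 neither, with a median difference of 0.25 and Ndufb6 (0.75) and Ndufv1 (0.71) among the largest. Without FAK1 untreated array 1, 14 were higher and 1 lower, and without FAK5 untreated array 2, 15 and 2. Of 11 genes of complexes II and III, 8 were higher and 0 lower (median 0.35), with Uqcrq at 0.90, Cyc1 at 0.72 and Sdha not passing (-0.23).

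Cytochrome c oxidase held the widest split in the chain. Of 14 genes, 9 were higher and 2 lower (median 0.33), against 34.7% and 29.5% over all genes. Cox6a1, the subunit form found in most tissues, was 14.27 to 14.47 on FAK1 arrays and 10.56 to 10.81 on FAK5 arrays (difference 3.62 ± 0.07, adjusted p = 2.19e-13). Cox6a2, the heart and muscle form, was 12.39, 12.29, 10.39, 4.70, 11.56 and 6.47 on the FAK1 arrays, treated first, against 14.40, 14.44, 14.49, 14.13, 14.49 and 14.39 on the FAK5 arrays (difference -4.76 ± 1.00, adjusted p = 0.000891). Cox8b, a form shared by muscle and brown fat, was higher in FAK1 by 0.65, and Cox7a1, likewise shared, did not pass (0.34, adjusted p = 0.14), but passed without FAK1 untreated array 2 (0.49) and under 5 other alternatives, with differences between 0.27 and 0.51. Beside Cox6a2 the lower gene was Cox7a2, and 1 lower gene was left without any one of 6 arrays (FAK1 treated array 2, FAK1 untreated arrays 2 and 3, FAK5 treated array 1 and FAK5 untreated arrays 1 and 3). The higher ones numbered 6 without FAK1 untreated array 1 or without FAK1 untreated array 3, and 5 over untreated arrays alone. Of 19 genes of ATP synthase and nucleotide exchange, 3 were higher and 9 lower (median -0.12, which was 0.02 when the probes of a gene were averaged). The lower ones included Slc25a3, the phosphate carrier (-2.06), and Vdac1, the outer membrane channel (-1.81).

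**Figure D2:**
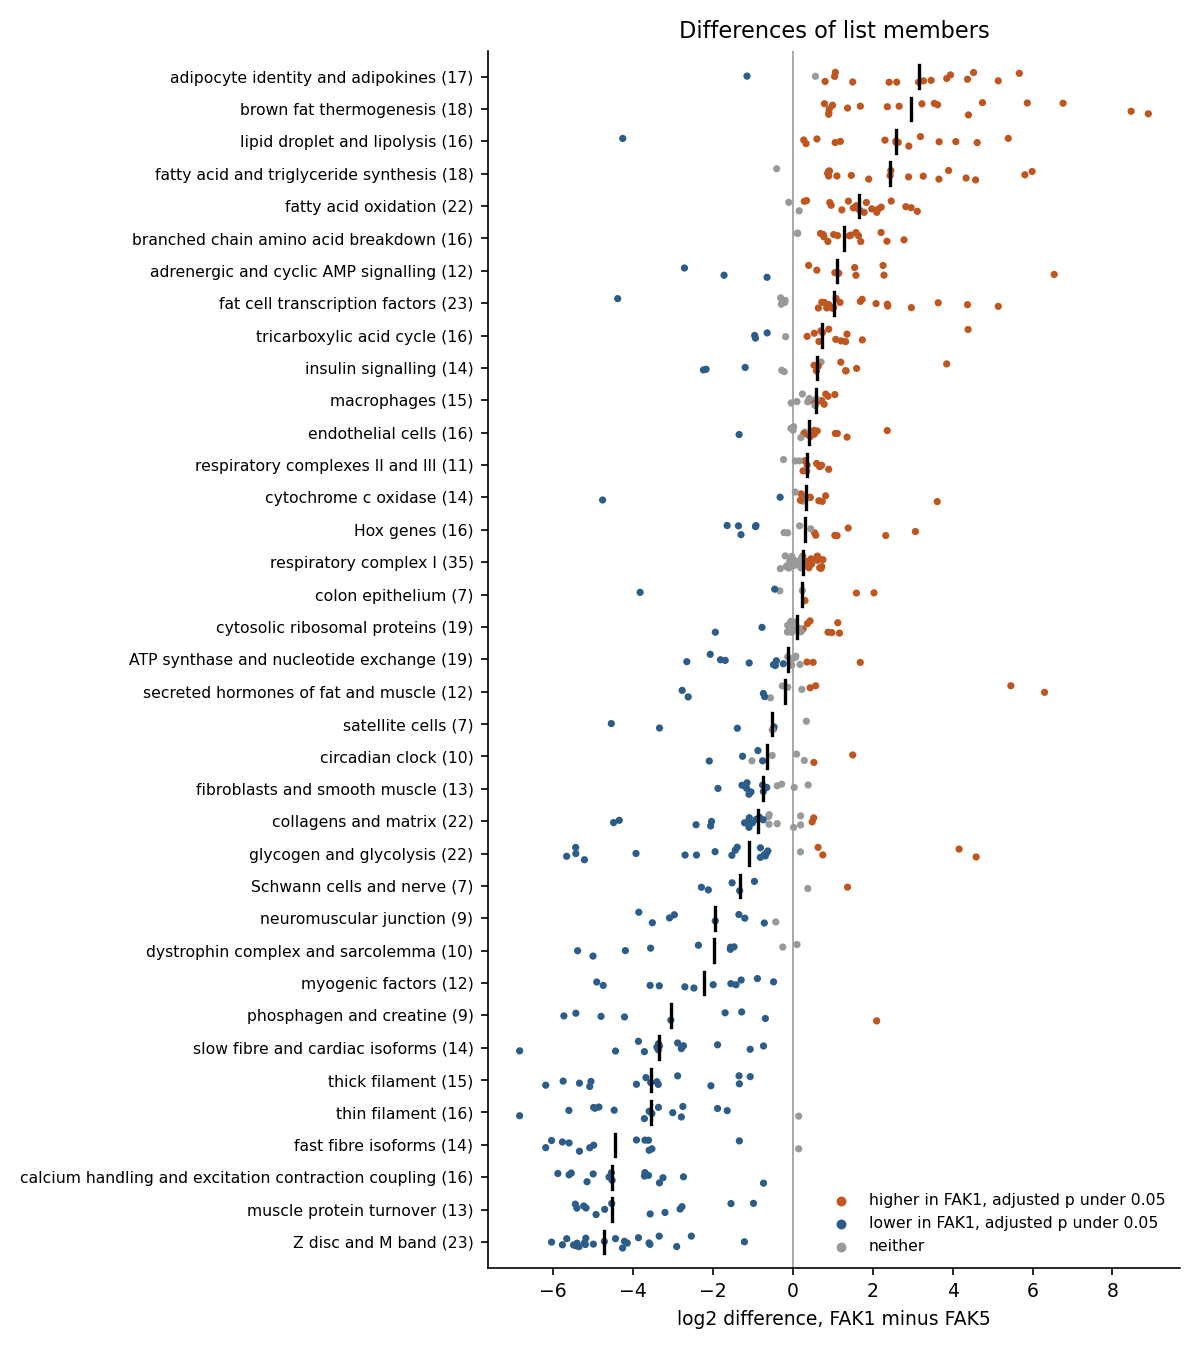
Log2 difference, FAK1 minus FAK5, of each tested member of the gene lists with at least 7 tested members (number in brackets); coloured points passed the test and black bars are list medians. Fat cell genes had a median of 3.15, complex I genes lay near 0 with a median of 0.25, and Z disc and M band genes had a median of -4.71.

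Genes of the sarcomere were lower in FAK1 almost without exception. Of 15 thick filament genes, 15 were lower and 0 higher (median -3.55), of 16 thin filament genes 15 were lower and 0 higher (median -3.56), and of 23 genes of the Z disc and M band 23 were lower (median -4.71). Among the thick filament genes, Myh4, the myosin of the fastest fibres, differed by -5.34 and Myh1 by -5.08, and without FAK1 untreated array 1 by -4.54 and -4.44. Tmod4, a cap of thin filaments (-5.60), and Tnnt3, fast troponin T (-4.98), led the thin filament genes after Actc1. Xirp2 (-5.66) and Ldb3 (-5.48) followed Myoz1 and Actn3 in the Z disc list, and Ttn, the giant spring protein titin, differed by -5.19. Ankrd1, a stretch-responsive protein, was detected on 0 FAK1 arrays and was at least 6.71-fold lower. The single thin filament gene that did not pass was Tpm1, a tropomyosin that many cells make, at 10.43 ± 0.23 in FAK1 and 10.28 ± 0.32 in FAK5 (0.15, adjusted p = 0.405).

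These genes varied from array to array within FAK1. Over 54 tested genes of the sarcomere lists, the median level was 9.69, 9.83 and 7.61 on FAK1 treated arrays 1, 2 and 3 and 4.61, 8.46 and 4.90 on FAK1 untreated arrays 1, 2 and 3, against 11.85 to 12.21 on the FAK5 arrays. Of the 54, between 47 and 53 were detected on the 4 FAK1 arrays with high Xist, and 25 and 30 on FAK1 untreated arrays 1 and 3, which carried Eif2s3y, while every FAK5 array detected 54. In FAK5 the median was 11.85 and 12.21 on the arrays with Eif2s3y and 11.91 to 12.12 on the others. The median SD of the 54 genes was 1.83 in FAK1 and 0.28 in FAK5, against 0.22 and 0.25 over all genes tested. The part of the sex chromosome pattern in the muscle transcripts of FAK1 was not tested.

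Acta1, the actin of skeletal muscle, shows the range. It was 14.42, 14.41 and 13.05 on the FAK1 treated arrays and 4.93, 13.14 and 9.45 on the untreated ones, against 14.17 to 14.41 on the FAK5 arrays. FAK1 treated arrays 1 and 2 reached the FAK5 values, whereas FAK1 untreated array 1 lay near the detection limit. The call (-2.75 ± 1.15, adjusted p = 0.0494) was lost without FAK1 treated array 3 (-2.81), FAK1 untreated array 3 (-2.54) or any one FAK5 untreated array (-2.46 to -2.52), and without FAK1 untreated array 1 the difference was -1.54. Myh7, the slow myosin, was similarly close to the threshold (-1.06, adjusted p = 0.0302), and its call ended without any one of 6 arrays (FAK1 treated array 3, FAK1 untreated arrays 1 and 3, FAK5 treated array 1 and FAK5 untreated arrays 2 and 3), with differences between -0.82 and -0.98. Without untreated arrays 1 and 3 of both labels, 11 thick filament, 11 thin filament and 23 Z disc and M band genes were still called lower, with medians of -2.34, -1.90 and -3.60. Leaving out FAK1 untreated array 1 moved the fold of 11 of the 183 named genes that passed the test by over 1.5 times: Actn3, Ckmt2, Cox6a2 (-3.90), Myh4, Myh1, Tnnt3 (-4.15), Acta1, Ttn (-4.42), Pvalb, Ckm (-3.93) and Atp2a1 (-2.61). FAK1 untreated array 2 did so for Cox6a2 (-5.42), Acta1 (-3.36) and Atp2a1 (-4.30), and FAK1 untreated array 3 for Myh1 (-4.41).

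A few sarcomere genes were detected on all 6 FAK1 arrays, untreated arrays 1 and 3 included. Of the 54, 21 were, against 54 on all 6 FAK5 arrays. Of all 10383 genes tested, 8785 were detected on all 6 FAK1 arrays and 8513 on all 6 FAK5 arrays. Unc45b, a chaperone of myosin, varied little in FAK1 (8.88 to 9.77) and was 11.26 to 11.79 in FAK5. Fhl1 was 10.93 and 10.28 on FAK1 untreated arrays 1 and 3, Actn2, the alpha-actinin of slow and cardiac muscle, 9.24 and 9.20, and Des, the muscle intermediate filament desmin, 7.73 and 8.05. Myl1, the fast essential light chain, was 11.54 and 11.85 there, and 14.65 and 14.71 on FAK1 treated arrays 1 and 2, against 14.50 to 14.69 on FAK5 arrays (difference -1.34 ± 0.38, adjusted p = 0.00714, but -0.20 and adjusted p = 0.456 over treated arrays alone). Fast and slow isoforms were both lower: 13 of 14 fast fibre genes and 14 of 14 slow fibre and cardiac genes, with medians of -4.45 and -3.35. Over the treated arrays alone, 12 of the 14 fast and 7 of the 14 slow genes were called, with medians of -2.04 and -1.81, and over the untreated arrays alone the medians were -6.685 and -4.47. Without FAK1 untreated array 1 alone they were -3.53 and -2.72. Without untreated arrays 1 and 3 of both labels, 12 fast and 8 slow genes were called. Myh6, a myosin of the atrium, was detected on 4 FAK1 and 6 FAK5 arrays (-2.88).

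**Figure D3:**
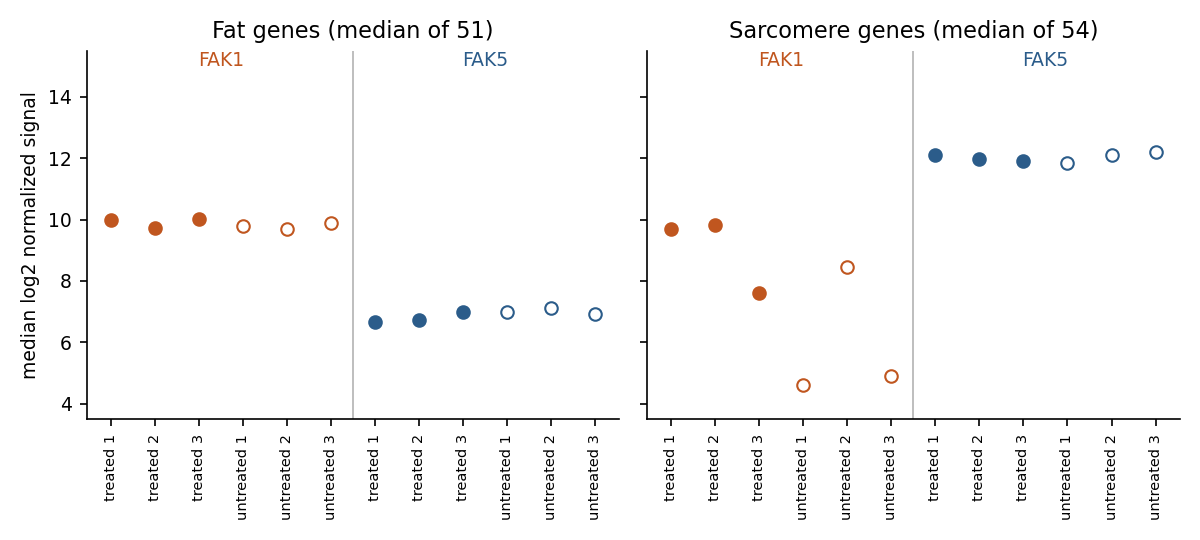
Median log2 normalized signal on each array of 51 genes of the 3 fat lists (thermogenesis, adipocyte, lipid droplet) and of 54 sarcomere genes, FAK1 left and FAK5 right, filled points U73122 and open points untreated. Fat genes lay between 9.70 and 10.01 on FAK1 arrays and between 6.68 and 7.11 on FAK5 arrays, while sarcomere genes ranged from 4.61 to 9.83 on FAK1 arrays and stayed between 11.85 and 12.21 on FAK5 arrays.

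Fat genes did not vary in this way. Over 51 genes of the thermogenesis, adipocyte and lipid droplet lists, of which 48 were higher and 2 lower, the median level was 9.70 to 10.01 on FAK1 arrays and 6.68 to 7.11 on FAK5 arrays, and the median SD was 0.29 and 0.26. Each FAK5 array detected between 37 and 43 of the 51, and each FAK1 array between 49 and 51.

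Other parts of the muscle fibre followed the sarcomere. All 16 tested genes of calcium handling were lower (median -4.53). Beside Ryr1, they held Casq1, the calcium store protein of the sarcoplasmic reticulum (-5.60), Hrc, a calcium-binding protein of the same store (-5.54), Jph1, which ties the store to the surface membrane (-5.15), and Pvalb, the calcium buffer parvalbumin of fast fibres (-3.61, and -2.72 without FAK1 untreated array 1). The pump of fast fibres, Atp2a1, was 13.44, 13.53, 11.81, 4.57, 12.20 and 8.15 on the FAK1 arrays, treated first, against 14.23 to 14.41 on FAK5 arrays (-3.70 ± 1.09, adjusted p = 0.00898). Atp2a2, the slow and cardiac pump that other cells also make, was lower (-0.73), but its probes opposed each other, and their mean was 0.19 higher in FAK1 (adjusted p = 0.208). Of 9 genes of the neuromuscular junction, 8 were lower (median -1.94). The acetylcholine receptor subunits Chrna1 and Chrnb1 differed by -3.85 and -2.96, Rapsn, the receptor's anchor, by -3.08, and the adult subunit Chrne, detected on 0 FAK1 arrays, was at least 8.72-fold lower. Of 10 genes of the dystrophin complex, 8 were lower (median -1.96), with Sgca, a sarcoglycan (-5.38), and Dtna, dystrobrevin (-5.00), at one end and Dag1, dystroglycan, not passing at the other (-0.25, adjusted p = 0.143).

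Of 13 genes of muscle protein turnover, 13 were lower (median -4.53). Klhl41 (-5.44), Asb2 (-5.40), Klhl40 (-5.23) and Fbxo40 (-5.17) encode parts or substrates of ubiquitin ligases and stabilisers of the thin filament, and Trim63, the ligase of muscle wasting, was detected on 0 FAK1 arrays and at least 5.67-fold lower. Of the 12 myogenic factors tested, 12 were lower (median -2.23). On all 6 arrays of their label, 1 of them was detected in FAK1 and 11 in FAK5, against 8785 and 8513 of all 10383 genes tested. Myf6, the factor that stays on in mature fibres, was 7.40, 7.47, 5.98, 4.73, 5.85 and 4.65 on the FAK1 arrays, treated first, against 10.57 to 11.12 on FAK5 arrays (-4.90 ± 0.35, adjusted p = 3.51e-08). Vgll2, a cofactor of muscle genes, differed by -4.74, Mef2c by -3.57, Tbx1 by -3.34 and Myod1 by -2.47. Myog and Lbx1 were detected on 0 FAK1 arrays and were at least 2.45-fold and 4.99-fold lower. Of 7 satellite cell genes, 5 were lower, among them Chodl (-4.54), Cdh15 (-3.33) and Itga7 (-1.39), and 1 was higher without FAK1 treated array 1. Cdh15 was detected on 1 of 6 FAK1 arrays.

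Among 23 transcription factors of fat cells, 18 were higher and 1 lower (median 1.02). After Pparg, the largest were Cebpa, which maintains the fat cell state (detected on 0 FAK5 arrays and at least 14.9-fold higher), and Ppara, which drives fatty acid oxidation genes (3.64). Ppara was detected on 1 of 6 FAK5 arrays, so its difference is largely against background. The lower one was Tbx15 (-4.38 ± 0.23, adjusted p = 1.79e-09), a T-box factor known from both brown fat and fast muscle, at 4.46 to 5.65 on FAK1 arrays and 9.003 to 10.07 on FAK5 arrays. Esrrg (-0.30, adjusted p = 0.175) and Klf15 (-0.20, adjusted p = 0.584) did not pass. Esrrg passed without FAK1 untreated array 2 (-0.49), which at 8.296 lay above the other FAK1 arrays. One lower gene more was called without FAK1 untreated array 2 or without FAK5 treated array 3, giving 2.

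In several families that both tissues use, one gene was higher and another lower in FAK1, often with both detected in both labels. Of the phosphofructokinases, which commit glucose to glycolysis, Pfkl was higher (11.60 ± 0.28 in FAK1 against 7.02 ± 0.36 in FAK5, difference 4.59 ± 0.13) and Pfkm lower (10.99 ± 0.38 in FAK1 against 13.68 ± 0.15 in FAK5, difference -2.70 ± 0.13). Phosphoglycerate mutase showed Pgam1 higher by 4.16 ± 0.15 and Pgam2 lower (-5.43 ± 0.69). Glycogen phosphorylase showed Pygl, the liver form, higher by 4.84 ± 0.29 and Pygm lower (-5.66 ± 0.36). The brain creatine kinase Ckb was higher by 2.10 ± 0.25, at 11.38 to 12.48 in FAK1 and 9.01 to 10.63 in FAK5, and the muscle form Ckm was lower (-4.80 ± 0.97). Of the adenine nucleotide carriers, which exchange ATP for ADP across the inner membrane, Slc25a5 was higher by 1.69 ± 0.09 and Slc25a4 was lower (-2.65 ± 0.13). Of the type II regulatory subunits of protein kinase A, Prkar2b was higher by 6.54 ± 0.16 and Prkar2a was lower (-2.71 ± 0.19). These pairs were picked after the values were seen. The pair Atp2a1 and Atp2a2 did not divide, as both were lower, and the pair of Cox7a genes did not because Cox7a1 did not pass.

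**Figure D4:**
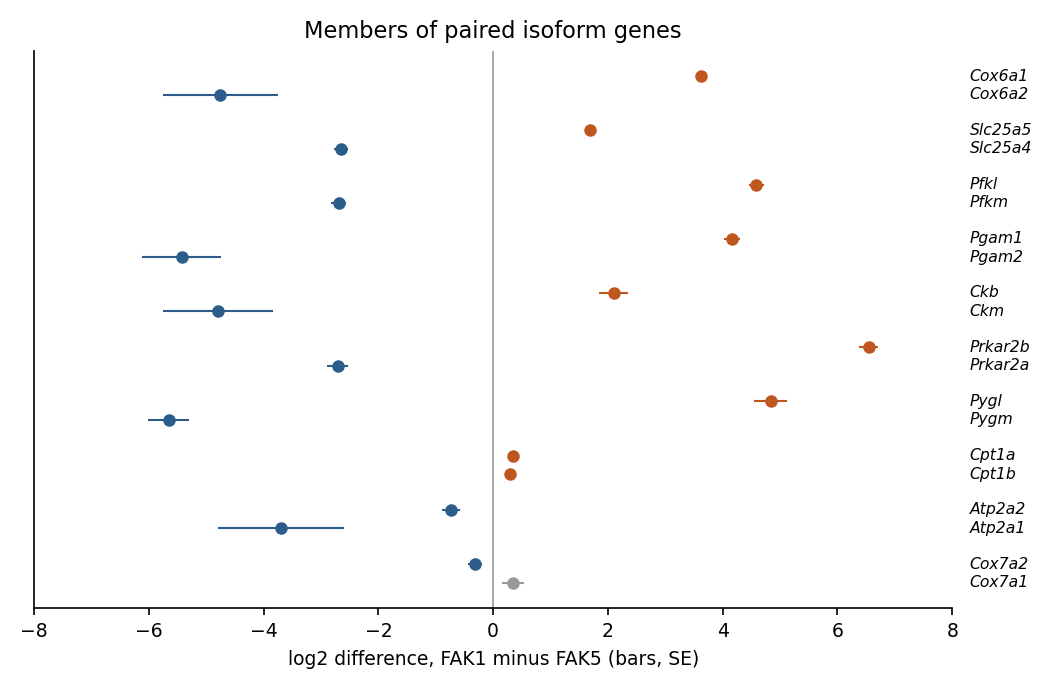
Log2 difference, FAK1 minus FAK5, with its SE, for 10 pairs of genes that encode forms of one protein, orange where higher in FAK1, blue where lower and grey where the test was not passed. In 7 pairs one gene was higher and the other lower, for example Cox6a1 at 3.62 and Cox6a2 at -4.76; the pairs of Cpt1, Atp2a and Cox7a genes did not divide this way.

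Of 22 genes of glycogen use and glycolysis as a whole, 4 were higher and 17 lower (median -1.10). Phkg1, the muscle catalytic subunit of phosphorylase kinase (-5.43), and Eno3, muscle enolase (-5.21), were among the lower, and Hk1, hexokinase, did not pass (0.19, adjusted p = 0.3). Of 9 phosphagen and creatine genes, 1 (Ckb) was higher and 8 were lower (median -3.05), among them Ampd1, the muscle AMP deaminase (-5.43), and Mb, myoglobin (-4.21). Mb stayed between 8.10 and 8.52 on the 3 FAK1 untreated arrays, above background, and was 12.79 to 14.46 on FAK5 arrays.

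Of 12 genes of adrenergic and cyclic AMP signalling, 9 were higher and 3 lower (median 1.10), with the adenylate cyclases Adcy6 (2.28) and Adcy3 next to Prkar2b; Adcy3 was detected on 0 FAK5 arrays and at least 3.88-fold higher. Of 14 insulin signalling genes, 8 were higher and 3 lower (median 0.62), led by Irs3, an insulin receptor substrate of mouse fat (3.85), with Tbc1d4, a regulator of glucose transporter traffic (-2.23), and Grb10, an inhibitor of the receptor (-2.17), lower. Of 12 genes of hormones secreted by fat and muscle, 4 were higher and 4 lower, shares near those over all genes (34.7% and 29.5%). Angptl4 and Nrg4, a growth factor secreted by brown fat, were higher by 6.30 and 5.46. Fndc5, the precursor of irisin, and Igf2, a growth factor, were lower (-2.77 and -2.62). Nrg4 was 9.36 to 10.65 on FAK1 arrays and 4.57 to 4.91 on FAK5 arrays, and 1 of 6 FAK5 arrays detected it.

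Hox genes, which keep a record of position along the body axis, went both ways. Of 16 tested, 7 were higher and 5 lower, against 34.7% and 29.5% over all genes. Paralogue groups 2 to 6 held 9 tested genes, of which 7 were higher and 0 lower, and groups 7 to 13 held 7, of which 0 were higher and 5 lower; the border was chosen after the values were seen. Hoxc6 was 8.45 to 9.62 on FAK1 arrays and 5.52 to 6.57 on FAK5 arrays (3.07 ± 0.20, adjusted p = 1.31e-08). Hoxb4 (2.33), Hoxa4 (1.39) and Hoxa5 (1.11) were also higher. Hoxd9 (-1.64), Hoxa7 (-1.36) and Hoxd10 (-0.92) were lower, and Hoxa9 was detected on 0 FAK1 and 6 FAK5 arrays and was at least 1.99-fold lower. Hoxd10 was detected on 1 FAK1 and 6 FAK5 arrays, Hoxb5 on 6 and 1, and Hoxb2 on 5 and 0. These genes and Hoxa9 could pass the detection filter only through the label where they are high. They therefore had to differ, and the split by number was not tested. Of the 31 Hox genes on the array, the other 15 did not pass the detection filter. With a detection p under 0.01 asked on all arrays of a label, 11 Hox genes were tested and 3 were lower.

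**Figure D5:**
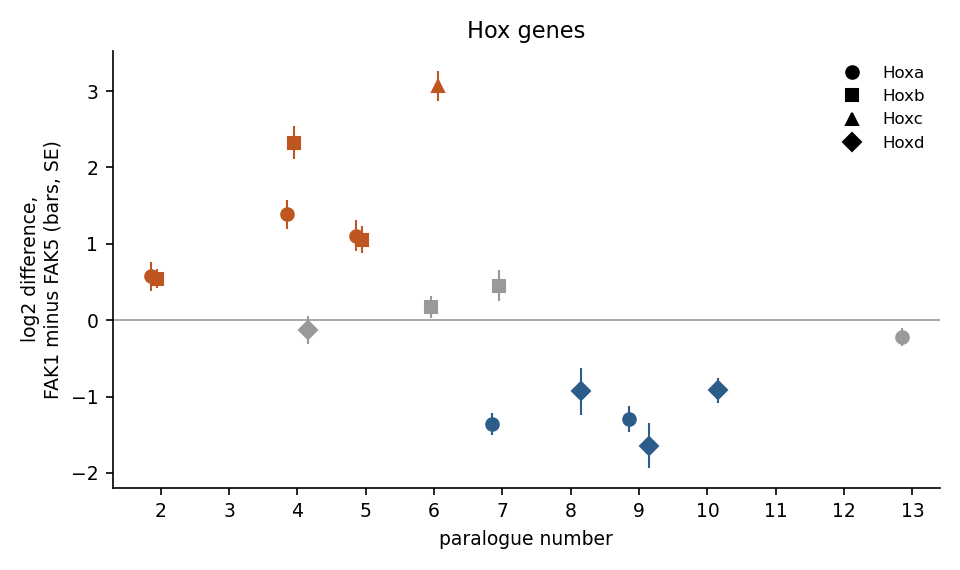
Log2 difference, FAK1 minus FAK5, with its SE, of 16 Hox genes against their paralogue number, with a symbol for each cluster, orange where higher in FAK1, blue where lower and grey where the test was not passed. The 7 genes that were higher have numbers between 2 and 6, and the 5 that were lower between 7 and 10. The split by number was seen in these values and was not tested.

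Genes of other cell types were also measured, and their counts stand beside 34.7% higher and 29.5% lower over all genes. All 16 endothelial genes were detected on all 6 arrays of both labels, with 10 higher and 1 lower (median 0.41); without untreated arrays 1 and 3 of both labels, 6 were higher. Cldn5, a tight junction protein, was higher by 2.36 and Gpihbp1, which holds lipoprotein lipase on capillaries, by 1.36. Vwf, von Willebrand factor, was lower (-1.34), and Pecam1 did not pass (-0.05, adjusted p = 0.688; 0.01 without FAK5 untreated array 2). Of 15 macrophage genes, 8 were higher and 0 lower (median 0.58), with C1qc at 1.05 and C1qb at 0.79, and leaving out FAK1 treated array 1, FAK1 untreated array 2 or FAK5 treated array 3 left 4 called, while FAK5 untreated array 3 left 5. Of 13 fibroblast and smooth muscle genes, 0 were higher and 9 lower (median -0.75), among them Fap (-1.87), smooth muscle myosin Myh11 (-1.27) and Pdgfra (-1.14), and 1 was higher without FAK1 untreated array 2. Of 7 Schwann cell and nerve genes, 1 (S100b, 1.37) was higher and 5 were lower, among them Ncmap (-2.29) and Pmp22 (-1.52), which belong to myelin; without FAK5 untreated array 2, 2 were higher. Of 4 erythroid genes, 1 was higher (Alas2, 1.63, which was 11.07 on FAK5 untreated array 2 and 8.35 to 9.43 on the other FAK5 arrays), and without FAK5 treated array 3 or FAK5 untreated array 2 it was 2. Of 2 tested lymphocyte genes limma called 0, and 1 without FAK5 treated array 2. Of 5 liver genes tested, 3 were higher, among them Apoc3 (1.36) and Trf (1.25).

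Of 22 collagen and matrix genes, 2 were higher and 13 lower (median -0.88). Fmod, fibromodulin of tendon, was 4.27 to 4.42 on FAK1 arrays, detected on 0 of them, and 8.94, 9.92, 8.74, 8.89, 6.79 and 9.60 on the FAK5 arrays, treated first, so that it was at least 15.9-fold lower. Chad, chondroadherin of cartilage and tendon, behaved likewise (-4.34), and Comp, a cartilage and tendon protein, was detected on 0 FAK1 and 5 FAK5 arrays and was at least 3.20-fold lower. Col1a1 (-2.05) and Col1a2 (-2.42) overlapped between labels because FAK5 untreated array 2 was low, at 9.72 and 8.61 against 12.39 to 13.24 and 11.30 to 11.97 on the other FAK5 arrays. Col4a2, a basement membrane chain, was higher by 0.49. Without FAK1 treated array 2, FAK1 untreated array 1 or 3, or FAK5 untreated array 3, 1 gene was higher. Of 19 cytosolic ribosomal protein genes, 7 were higher and 2 lower (median 0.10), against 34.7% and 29.5% over all genes. They lay between Rpl19 (1.17) and Rplp0 (-1.94). Of 10 clock genes, 2 were higher (Per2 at 1.501 and Clock at 0.53) and 4 lower, among them Nr1d2 (-2.09), Dbp (-1.26) and Arntl (-0.87). FAK1 untreated array 2 stood apart in them, with Nr1d2 at 8.68 against 6.08 to 6.67 on the other FAK1 arrays. Apc itself, the floxed gene, was near the detection limit. It was 4.73, 4.87, 5.76, 5.53, 5.65 and 5.23 on the FAK1 arrays, treated first, against 4.43 to 4.84 on FAK5 arrays (0.61, adjusted p = 0.0072). The limma call was lost over treated arrays alone (0.41, adjusted p = 0.224). It was also lost without untreated arrays 1 and 3 of both labels (0.51, adjusted p = 0.0771).

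Whether the label contrast was unequal between treated and untreated arrays was tested for each gene. In both labels every treated array had high Xist, and untreated arrays 1 and 3 carried Eif2s3y. Treatment and that pattern therefore cannot be fully told apart in this test. By limma, 0 of 10383 genes passed (0%), and 686 (6.61%) had an unadjusted p under 0.05. In data simulated with noise drawn independently for each gene, this test recovered 5.97%, 32.8% and 80.3% of genes changed 1.5-fold, 2-fold and 4-fold. Most small inequalities would thus be missed, and the count of 0 does not show that the contrast was equal. The smallest p belonged to Tiam1, an activator of the GTPase Rac, at 7.84, 7.87, 7.22, 6.96, 7.70 and 7.58 on the FAK1 arrays, treated first, against 8.996, 9.14, 9.55, 6.80, 6.42 and 6.36 on the FAK5 arrays (difference of differences -2.47 ± 0.35, adjusted p = 0.101). Its FAK5 treated arrays lay above its FAK5 untreated arrays, while the FAK1 arrays overlapped. Lrmda followed (1.69, adjusted p = 0.32), and then Mybpc2 (3.77) and Myl1 (2.27), both with adjusted p = 0.536. The number that passed was 48 without FAK1 untreated array 2, 27 without FAK1 treated array 3, 1 without FAK1 untreated array 1 and 0 without any other single array.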

How the data were processed

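Illumina mouse bead array intensities of 18 samples, as deposited by the authors per the file headers, came with a detection p-value per probe, also deposited; they were neither background-corrected nor normalized, and 23.2% to 26.3% of the probes had a value below 0 on the 12 arrays. For the chip, scanner software and any batch, the details are not given in the sources used. The 18 arrays were corrected and normalized together with neqc (limma 3.58.1, R 4.3.3, offset 16). Probes were named through the platform annotation: of 45281 probes, 34885 had 1 gene symbol, 18 several and 10378 none. Probes stayed in if 1 or more of the 4 combinations of label and treatment had a detection p under 0.05 on each of its 3 arrays, and the brightest kept probe stood for its gene. Between 39.6% and 44.2% of the probes were detected on an array, and the number of arrays limits the precision. FAK1 and FAK5 were compared with limma (treatment as a block, intensity trend, two-sided, Benjamini-Hochberg over 10383 genes). Where a label detected a gene on 0 of 6 arrays, the fold is a lower bound against the lowest detected signal. In simulated data for this comparison over 10383 genes, 61.2%, 88.1% and 98.5% of genes changed 1.5-fold, 2-fold and 4-fold were recovered, with 16 false calls. Only 67, 67 and 66 genes were changed there, with noise drawn independently for each gene and no treatment effect. In the measured data 64.2% of genes were called, so the recovery and false calls of this contrast may differ.

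The gene lists and the contrast were chosen with earlier results of these data known. Named genes were the 12 largest differences in each direction among called genes whose values did not overlap, the markers, and up to 8 members of each list, chosen by size, by opposite direction and by failing the test. The isozyme pairs, the Hox border and Unc45b, Actn2, Fhl1, Des, Pygl, Atp2a1, Rplp0, Rpl19, Clock and Dbp were picked after their values were seen. Some items of the genotype are not reported here.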

Additional observations from a re-analysis of the deposited data

Results flagged for a closer look

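Of 482 sets of 6 values (named genes and list medians, each label apart), 53 had 1 array farther from the others than Dixon's 95% limit for 6 values; chance alone gives about 1 in 20. Values are log2 normalized signals. Most came from untreated array 2, with 19 sets in FAK1 and 21 in FAK5. FAK1 untreated array 2 lay below the other FAK1 arrays in Tmem45b at 11.73, Kng1 at 10.11, Apoc1 at 12.09, Kng2 at 8.99, Lncbate10 at 9.36, Lep at 7.17 and Thrsp at 12.17. The same array was also below the rest in Ndufb6 at 13.48, Cox7a1 at 13.08, Pfkl at 11.04, Nrg4 at 9.36, Irs3 at 7.53, Arntl at 6.67 and the median of respiratory complex I at 12.83. The same array was also below the rest in the median of cytochrome c oxidase at 13.50. It lay above them in Pdk4 at 13.72, Esrrg at 8.296, Nr1d2 at 8.68 and the median of circadian clock at 8.64. FAK5 untreated array 2 lay below the other FAK5 arrays in Actc1 at 10.84, Dlat at 8.79, Cs at 12.24, Casq1 at 10.18, Pgam2 at 12.58, Eno3 at 14.11 and Fndc5 at 8.32. The same array was also below the rest in Col1a1 at 9.72, Col1a2 at 8.61, the median of thin filament at 11.06 and the median of collagens and matrix at 8.38. Against the other FAK5 arrays, it was higher in Apoc1 at 6.48, Rapsn at 9.14, Vwf at 8.44, Cdh15 at 8.83, Itga7 at 10.31, Apoc3 at 6.03 and Des at 12.90. The same array was also above the rest in Dbp at 9.45, the median of cytosolic ribosomal proteins at 13.02 and the median of satellite cells at 8.83. FAK1 treated array 1 was below its label in Hadh at 10.04. FAK1 treated array 1 was above its label in Ankrd1 at 4.82 and Chrne at 4.72. FAK1 treated array 3 was above its label in Chad at 5.09. FAK1 untreated array 3 was below its label in Fabp4 at 11.82. FAK5 treated array 2 was above its label in Ucp1 at 5.05, Cidea at 5.27 and Lhx8 at 4.65. FAK5 treated array 3 was below its label in Lbx1 at 6.67 and Trf at 6.66. FAK5 untreated array 1 was below its label in Cox6a2 at 14.13. FAK5 untreated array 3 was above its label in Lipe at 5.57 and Adcy6 at 7.63. Outside the named genes, 2855 kept probes had no single gene symbol, of which 904 were higher and 724 lower, 11 and 22 of them at least 16-fold; they enter no comparison above.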

How the results depend on the processing

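Over 29 alternatives (other background corrections and normalizations, filters, probe rules, fits, subsets and each array left out), the counts of genes higher, lower and at least 4-fold in either direction stayed within 1.5 times the values given. Leaving out single arrays gave 3411 to 3565 genes higher, 2927 to 3098 lower, 376 to 398 higher at least 4-fold and 508 to 541 lower at least 4-fold. The count of genes whose contrast was unequal between treatments was 1 with robust variances, 3 with all 18 arrays in the fit, and 0 to 48 with single arrays left out. Of 5762 values of the 199 named genes, 5662 kept direction and side of the threshold, 100 did not, and 9 reversed. These were Slc7a10 over untreated arrays (-0.25), Me1 over treated arrays (0.13) and without untreated replicates 1 and 3 (0.022), Atp2a2 and Pecam1 with the mean of probes (0.19 and 0.21), and Tiam1 over untreated arrays (0.89, adjusted p = 0.0205). With single arrays left out, Pecam1 ranged from -0.078 to 0.0084 and Xist from -0.49 to 1.13. The cause was not tested. Scaling by array medians moved the median difference of all genes to 0.11, against 0.06, and the share of calls that were higher to 57.8%, against 54%. With the replicate number as a block, 6797 genes were called, of which 6531 were among the 6667 called without it; same-numbered arrays of the labels had deviations that correlated at 0.0652 to 0.296, over 0.1 in 4 of 6 pairs, and since pairing was to be assumed only with all 6 over 0.1, the block was not used. All 6 FAK1 and 4 of 6 FAK5 arrays correlated best with their own number, and Xist and Eif2s3y followed the number in both labels. Among the named genes the block changed the calls of Cox7a1 (adjusted p = 0.00374), Acta1 (0.0549) and Xist (0.0393). Genes near the detection limit and genes near the top of the scale have differences that signal range limits.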
